A study of Capra hircus with 4 samples.

Results

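The insulin-like growth factor (IGF) system of the goat ovary was followed through 9 genes, 1 ligand (IGF1), 2 receptors (IGF1R and IGF2R), 5 binding proteins (IGFBP2, IGFBP3, IGFBP4, IGFBP5 and IGFBP7) and the protease PAPPA. They were chosen by name and not by their values, and all 9 were found among the 28944 genes of the count matrices. The matrices hold nuclei from the ovaries of 2 Du'an goats (litter size 1) and 2 Nubian goats (litter size 3), with 1 library for each goat. All 4 goats were about 3 years old and carried a device releasing progesterone (300 mg) for 17 days, which synchronized estrus, and per the study's methods the left ovary was taken at estrus. The measurement was droplet single-nucleus RNA sequencing, in which each RNA molecule carries a unique molecular identifier (UMI), so that a level is a number of molecules and comes from RNA inside nuclei. The breeds also differ in litter size by choice of the animals, and breed and litter size cannot be told apart.

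IGF1 is a secreted growth factor that activates IGF1R, a receptor tyrosine kinase that signals through PI3K and AKT, and in the follicle it amplifies the response of granulosa cells (GCs) to FSH. IGF2R carries IGF2 and proteins tagged with mannose 6-phosphate to lysosomes and does not signal as a growth factor receptor. The binding proteins hold IGFs in the extracellular space, and PAPPA, a secreted metalloproteinase known from dominant follicles, cuts IGFBP4 and IGFBP5 and so frees the growth factor.

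The libraries held 9364 and 10893 nuclei in the Du'an goats and 16988 and 11087 in the Nubian goats, and 8723 to 15848 nuclei per library passed the filters. Nuclei were clustered without the 9 genes, and 14 classes were named from marker genes, while 8024 of the 44872 kept nuclei stayed without a name. UMIs were summed per goat and class, and levels are given as CPM, the UMIs of a gene per 1000000 UMIs of that sum. The sums held 47474 to 21663605 UMIs, the shallowest in the theca class. CPM values were compared between classes for the same gene only. In the main clustering Du'an replicate 1 gave 0 mural GCs, so that 3 goats carry each mural value. The ciliated class has sums from 2 goats. Of the kept nuclei, 626 carry a barcode that also occurs in another library, and leaving them out changed no member's call between classes or GC states.

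The levels of the markers in the named classes are described here. The same lists gave the classes their names, so a class high in its own list is not an independent check. The nuclei called mural GCs carried CYP19A1, the aromatase, at 2004, 2871 and 4303 CPM, and LHCGR, the LH receptor, at 3056, 1505 and 1882 CPM in the mural sums of Du'an replicate 2, Nubian replicate 1 and Nubian replicate 2. The nuclei called progenitor GCs carried the 5 progenitor markers at 2568 CPM summed, but their shared GC markers were low. The 8 shared markers summed to 2123 CPM there, against 6890.0, 7302 and 6625 CPM in cumulus, mural and cycling GCs and 492 to 1921 CPM in the classes outside the granulosa. FSHR, the FSH receptor, was at 777 ± 289 CPM in the progenitor class and at 3526 ± 25.8 CPM in cumulus GCs (SD, n = 4). The same 5 progenitor genes summed to 2221 CPM in fibroblasts. "Progenitor GC" is used below as a label borrowed from the study for this class, in which the shared GC markers are low. Whether it holds the same nuclei as the study's common progenitor GCs was not tested. The smooth muscle class is shallow, with a median UMI count 0.503 times that of its libraries, and carried the stromal list at 4853 CPM beside its own list at 4119 CPM. Of the 6 theca markers 4 were found, and they summed to 327 CPM in the theca class. That class also carried the stromal list at 5716 CPM and the mural list at 3624 CPM (1285 to 6074 over goats). In Du'an replicate 2 the theca markers summed to 226 CPM in theca nuclei and 334 CPM in smooth muscle.

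Each class was tested against the mean of the other classes within goats by edgeR's quasi-likelihood test, and a gene was called where its Benjamini-Hochberg adjusted p over all genes was under 0.05. Over the 9 genes and 14 classes, 36 of 126 pairs were called higher and 30 lower. Over all genes tested, 17.9% of pairs were called higher and 11.1% lower, against 28.6% and 23.8% for the 9 genes. The called genes spread over most classes. Fibroblasts, lymphatic endothelium and smooth muscle had 5 genes called higher each, blood endothelium and progenitor GCs had 4 each, and T or natural killer nuclei and ciliated nuclei had 0 called higher. The share called over all genes is not given class by class, so these counts do not rank the classes.

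**Figure D1:**
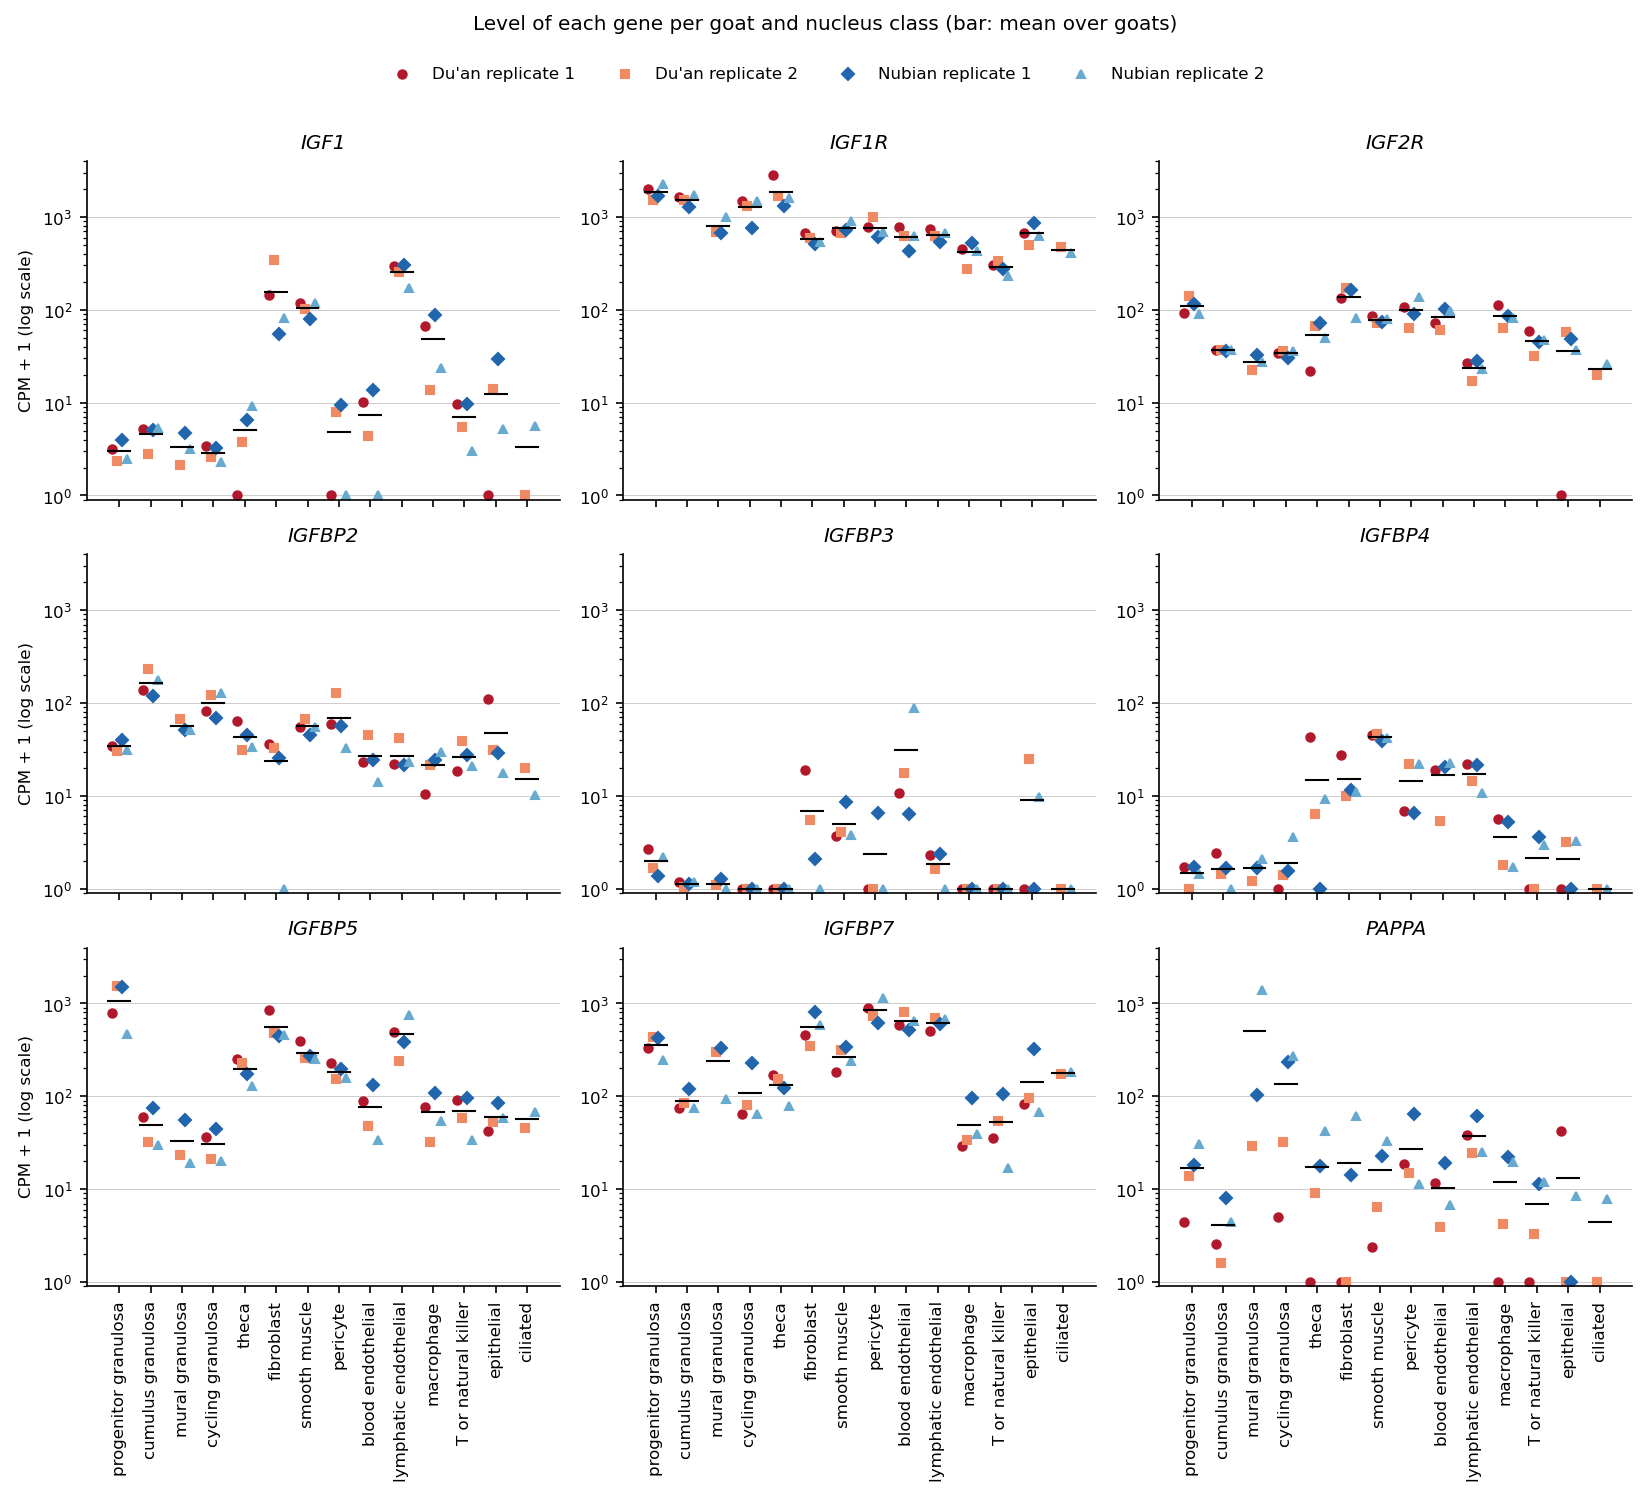
Level of each of the 9 genes in CPM plus 1 (vertical log axis) in each of the 14 nucleus classes, with 1 point per goat and a bar at the mean over goats. IGF1 stands high in lymphatic endothelium, fibroblasts and smooth muscle, IGF1R in progenitor, cumulus and cycling GCs and theca nuclei, IGFBP4 in smooth muscle, IGFBP5 in progenitor GCs and PAPPA in mural GCs and, in 3 of 4 goats, cycling GCs.

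IGF1 was a transcript of lymphatic endothelium, fibroblasts and smooth muscle and was close to absent from GCs. In lymphatic endothelium it was at 298 and 253 CPM in the Du'an goats and at 302 and 171 CPM in the Nubian goats (256 ± 60.9, SD, n = 4). In fibroblasts it was at 142, 339, 54.4 and 80.2 CPM in the same order, and in smooth muscle at 116, 101, 79.1 and 118 CPM. All 4 goats were above 50 CPM in each of these classes, and the fibroblast range overlaps the other two, while those of lymphatic endothelium and smooth muscle do not overlap. IGF1 was higher than in the other classes in lymphatic endothelium (log2 fold change 5.03, SE 0.24, adjusted p = 3.55e-23), in fibroblasts (4.05, SE 0.35, adjusted p = 4.63e-13) and in smooth muscle (3.52, SE 0.26, adjusted p = 8.65e-16). Lymphatic endothelium was above smooth muscle beyond the spread of the within-goat differences (log2 difference 1.28 ± 0.57, higher in 4 of 4 goats). The place of fibroblasts did not hold beyond it, with log2 differences of 1.04 ± 1.17 from lymphatic endothelium to fibroblasts and 0.24 ± 1.07 from fibroblasts to smooth muscle.

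The lymphatic class carried its own list at 10517 CPM, against 169 CPM for the fibroblast list and 259 CPM for the smooth muscle list. Other lists were higher in it, with 2135 CPM for blood endothelium, 1309 CPM for the shared GC markers and 1122 CPM for the mural markers. The stromal list was at 4305 CPM there, and the part of stromal RNA in the IGF1 level was not tested. The fibroblast value rested on unlike nuclei in the goats. A cluster of 649 fibroblasts, 579 of them from Nubian replicate 1, carried IGF1 at 59.0 CPM, and a cluster of 77 fibroblasts, 41 of them from Du'an replicate 2, carried it at 337 CPM (goats pooled). Without Du'an replicate 2 the fibroblast log2 fold change was 2.73, and without Nubian replicate 1 it was 4.63. Removing the nuclei with the highest doublet scores gave 2.07 and a finer clustering gave 1.92, all past the threshold.

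Macrophages came next for IGF1, with 65.9, 12.5, 87.5 and 22.3 CPM. Du'an replicate 1 and Nubian replicate 1 were high and the other two goats low, so that 1 goat of each breed is on each side. IGF1 was called higher in this class too (2.16, SE 0.33, adjusted p = 2.88e-07), and smooth muscle was above macrophages beyond the spread (log2 difference 1.48 ± 1.40, higher in 3 of 4 goats). From epithelial nuclei (11.3 ± 12.5 CPM) down to pericytes (3.83 CPM), no neighbours in the order of levels differed beyond their spread.

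In GCs, IGF1 was at 3.60 ± 1.2 CPM in cumulus, 2.32 ± 1.30 in mural, 1.97 ± 0.715 in progenitor and 1.89 ± 0.525 in cycling nuclei. These levels are below the 5.93 ± 3.30 CPM of T or natural killer nuclei. All 4 GC classes were called lower than the other classes (log2 fold change from -1.65 to -2.55, adjusted p from 0.00112 to 0.000105 in edgeR's test). These calls depended on 1 library: without Nubian replicate 2, which leaves the ciliated class with 1 sum holding 0 UMIs of IGF1, the adjusted p was 1.0 in each.

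IGF1R, the signaling receptor, had another order, with follicular classes first. Progenitor GCs carried it at 1991 and 1503 CPM in the Du'an goats and 1682 and 2236 CPM in the Nubian goats (1853 ± 325), theca nuclei at 2802, 1670.1, 1319.8 and 1597 CPM (1847 ± 654), and cumulus GCs at 1631, 1504, 1278 and 1732 CPM (1536 ± 196). The 3 ranges overlap, and no neighbours among them differed beyond the spread. IGF1R was called higher in all 3, with log2 fold changes of 1.51 (SE 0.12, adjusted p = 6e-15) in progenitor GCs, 1.01 (SE 0.13, adjusted p = 2.63e-08) in theca and 1.13 (SE 0.12, adjusted p = 1.14e-10) in cumulus GCs.

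Cycling GCs were below cumulus GCs for IGF1R in 4 of 4 goats (log2 difference 0.32 ± 0.28), with 1500.5, 1298, 762 and 1488 CPM, and were also called higher than the other classes (0.81, SE 0.12, adjusted p = 6.42e-07). Mural GCs followed with 689 CPM in Du'an replicate 2 and 678 and 995 CPM in the Nubian goats. Their contrast did not pass (0.32, SE 0.15, adjusted p = 0.106). At the other end, T or natural killer nuclei carried IGF1R at 285 ± 44.4 CPM and macrophages at 417 ± 104 CPM, and both were called lower (-1.43 and -0.88, adjusted p = 6.22e-11 and 1.91e-06). Fibroblasts, at 578 ± 70.4 CPM, and ciliated nuclei, at 441 CPM, were lower as well (-0.61 and -0.64, adjusted p = 0.00207 and 0.0181). The fibroblast call was lost under a finer clustering (adjusted p = 0.369) and when a sum needed at least 50 nuclei (adjusted p = 0.0925), and the ciliated call without either of its goats (adjusted p = 0.0543 without Du'an replicate 2 and 0.163 without Nubian replicate 2). The class means of IGF1R spanned 285 to 1853 CPM.

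IGF2R, the receptor that takes IGF2 to lysosomes, was shared out differently from IGF1R, with class means of 22.1 to 137 CPM. Fibroblasts carried it at 133, 172, 163 and 80.2 CPM and progenitor GCs at 91.4, 139, 115 and 88.4 CPM. Both were called higher (1.38, SE 0.19, adjusted p = 1.26e-07, and 1.23, SE 0.15, adjusted p = 6.71e-09), and the difference between them was within the spread (log2 difference 0.30 ± 0.31). Macrophages, blood endothelium, pericytes and smooth muscle were also called higher, with means of 76.7 to 98.3 CPM, log2 fold changes of 0.46 to 0.76 and adjusted p of 0.0357 or less. The pericyte call was lost without Du'an replicate 1, Nubian replicate 1 or Nubian replicate 2 (adjusted p = 0.127, 0.214 and 0.130), and the smooth muscle call without Nubian replicate 1 or 2 (adjusted p = 0.0607 and 0.0614).

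The other GC states were low for IGF2R. Cumulus GCs were at 36.0, 35.6, 35 and 35.5 CPM, a range of about 1 CPM over 4 goats, and mural GCs at 21.6, 31.7 and 26.4 CPM. Cumulus (-0.58, SE 0.18, adjusted p = 0.00837), cycling (-0.68, SE 0.19, adjusted p = 0.00267) and mural GCs (-0.85, SE 0.21, adjusted p = 0.00119) were called lower, as were ciliated nuclei (-1.05, adjusted p = 0.0319). The cumulus call was lost without Du'an replicate 1, Nubian replicate 1 or Nubian replicate 2 (adjusted p = 0.0566, 0.274 and 0.0947), the cycling call without Nubian replicate 1 (adjusted p = 0.0840), and the ciliated call without Du'an replicate 2, Nubian replicate 1 or Nubian replicate 2 (adjusted p = 0.195, 0.0673 and 0.102). The mural call held without each goat in turn. Lymphatic endothelium, the class with the most IGF1, carried IGF2R at 26.0, 16.2, 26.7 and 21.9 CPM and was called lower (-1.27, SE 0.22, adjusted p = 5.83e-06). Blood endothelium was at 82.1 ± 19.5 CPM, and the 2 endothelial classes did not overlap.

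IGFBP2 was highest in cumulus GCs. They carried it at 136 and 230.2 CPM in the Du'an goats and at 118 and 176 CPM in the Nubian goats (165 ± 49.7), and cycling GCs at 81.9, 120.4, 68.6 and 128 CPM. The ranges of the 2 classes overlap, but within each goat cumulus GCs were higher (log2 difference 0.72 ± 0.20, 4 of 4 goats). IGFBP2 was called higher in cumulus GCs (2.29, SE 0.16, adjusted p = 2.05e-16), cycling GCs (1.52, SE 0.17, adjusted p = 3.63e-10) and mural GCs (0.77, SE 0.20, adjusted p = 0.0025), where it was at 67.1, 50.8 and 50.2 CPM. The study names IGFBP2 as a cumulus gene on these same samples, so its place there is not independent evidence.

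Progenitor GCs carried IGFBP2 at 33.3, 29.2, 39.1 and 30.6 CPM, near the mean of the other classes (-0.05, SE 0.20, adjusted p = 0.979) and near the 25.5 ± 9.36 CPM of T or natural killer nuclei. Outside the granulosa the leading values were 67.8 ± 40.6 CPM in pericytes and 55.0 ± 8.87 CPM in smooth muscle, neither called. Blood endothelium (25.8 CPM), macrophages (20.6 CPM) and ciliated nuclei (14.1 CPM) were called lower, by log2 fold changes of -0.60, -0.81 and -1.53 (adjusted p = 0.0372, 0.00406 and 0.0123). None of these 3 calls held without each goat in turn: the blood endothelial one was lost without Du'an replicate 1, Nubian replicate 1 or Nubian replicate 2 (adjusted p = 0.102, 0.219 and 0.142), the macrophage one without Du'an replicate 2 (adjusted p = 0.0799), and the ciliated one without either of its goats (adjusted p = 0.0837 and 0.0836). The 3 GC calls held.

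IGFBP3, the main carrier of IGFs in blood, was rare, with 1.15 to 2.76 CPM over whole libraries. Blood endothelium had the highest mean, at 9.86, 16.5, 5.38 and 88.1 CPM, from 116 of the 253 UMIs of the named classes. Nubian replicate 2 stands far above the other goats, and it was called higher in that class (adjusted p = 2.21e-11). Epithelial nuclei had 30 UMIs in 2 of 4 goats (23.7 CPM in Du'an replicate 2 and 8.74 CPM in Nubian replicate 2, adjusted p = 2.6e-05), and smooth muscle had 2.74, 3.08, 7.57 and 2.77 CPM (62 UMIs, adjusted p = 0.00023). In Nubian replicate 1, 40 IGFBP3 UMIs lay in smooth muscle and 8 in blood endothelium. T or natural killer, cycling GC, macrophage, theca and ciliated nuclei had 0 UMIs, which allows up to 0.413, 0.264, 0.574, 3.57 and 3.99 CPM, taken as 3 counts over the class and covering counting error only. Because of these zeros the fitted folds of IGFBP3 and IGFBP4 depend on the prior count and are not given.

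IGFBP4, an inhibitor of IGF action that PAPPA cleaves, was a smooth muscle transcript. Smooth muscle carried it at 44.0, 45.5, 37.6 and 41.2 CPM (42.1 ± 3.46, adjusted p = 2.99e-17). Lymphatic endothelium followed at 20.8, 13.6, 20.4 and 9.75 CPM (adjusted p = 1.05e-08), and the 2 ranges do not overlap (log2 difference 1.39 ± 0.52, higher in 4 of 4 goats). Blood endothelium, at 18.2, 4.36, 19.5 and 21.7 CPM, was also called higher (adjusted p = 1.97e-07). Fibroblasts, at 14 ± 8.45 CPM from 25 UMIs, passed too (adjusted p = 0.00619), but not without Nubian replicate 1 (adjusted p = 0.104). In the GC classes IGFBP4 had means of 0.472 to 0.890 CPM, against 1.14 CPM in T or natural killer nuclei. Of the IGFBP4 UMIs of a library, 52.2% to 70.6% came from smooth muscle nuclei.

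IGFBP5, a binding protein of the extracellular matrix and another PAPPA substrate, differed widely between GC states. Progenitor GCs carried it at 796 and 1532 CPM in the Du'an goats and 1496 and 469 CPM in the Nubian goats (1073 ± 526). Cumulus GCs were at 59.1, 31.5, 73.4 and 28.8 CPM, mural GCs at 22.3, 54.7 and 18.3 CPM, and cycling GCs at 35.8, 20.3, 43.9 and 19.0 CPM. Every progenitor sum was above every sum of the other GC states, while the 2 goats with high progenitor values were of different breeds. IGFBP5 was called higher in progenitor GCs (3.49, SE 0.17, adjusted p = 7.76e-22) and lower in cumulus (-1.49, SE 0.26, adjusted p = 7.76e-06), mural (-1.87, SE 0.31, adjusted p = 4.59e-06) and cycling GCs (-2.18, SE 0.29, adjusted p = 1.6e-08). The study names IGFBP5 as a progenitor gene on these samples, so this direction is not independent evidence. The levels in cumulus, mural and cycling GCs are below the 68.7 ± 29.4 CPM of T or natural killer nuclei, and the part of free RNA in them was not tested.

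Outside the granulosa, IGFBP5 was high in the cells of the ovarian stroma and the lymph vessels. Fibroblasts carried it at 845, 483, 446 and 451 CPM and lymphatic endothelium at 498, 239, 388 and 743 CPM, and both were called higher (2.13, SE 0.22, adjusted p = 5.42e-11, and 2.17, SE 0.20, adjusted p = 4.27e-13). Smooth muscle was at 292 ± 66.2 CPM (1.25, SE 0.20, adjusted p = 3.3e-06). The fibroblast call was lost under a finer clustering (1.26, adjusted p = 0.0577). Progenitor GCs did not exceed fibroblasts beyond the spread (log2 difference 0.84 ± 0.99, higher in 3 of 4 goats). Pericytes, at 184 ± 35.1 CPM, were above blood endothelium, at 74.9 ± 44.5 CPM, with no overlap of the ranges (log2 difference 1.46 ± 0.69). Blood endothelium was called lower (-0.86, SE 0.26, adjusted p = 0.00842), a call lost without Nubian replicate 2 (-0.66, adjusted p = 0.0548), while lymphatic endothelium was called higher. IGF2R was called the other way in each, higher in blood and lower in lymphatic endothelium.

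IGFBP7, a binding protein of low IGF affinity found in vessel walls, was led by vascular classes. Pericytes carried it at 883, 741, 612 and 1144 CPM, blood endothelium at 579, 811, 521 and 653 CPM and lymphatic endothelium at 502, 697, 598 and 678 CPM. The ranges overlap, and no neighbours among the first 5 classes in the order of levels differed beyond the spread. All 3 were called higher (2.08, SE 0.22, adjusted p = 1.28e-10; 1.85, SE 0.20, adjusted p = 9.33e-11; and 1.80, SE 0.20, adjusted p = 2.63e-10). Fibroblasts, at 454, 348, 811 and 592 CPM, were also called higher (1.32, SE 0.23, adjusted p = 2.02e-05), with 811 CPM in the large fibroblast cluster and 111 CPM in the small one (goats pooled).

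Among GCs, IGFBP7 was high in progenitor nuclei, at 329.7, 435, 426 and 246 CPM (1.00, SE 0.21, adjusted p = 0.000227; 0.44 and adjusted p = 0.297 under a coarser clustering), and low in cumulus nuclei, at 74.0, 84.4, 119 and 74.3 CPM (-1.28, SE 0.26, adjusted p = 0.000101). Mural GCs were at 296 and 332 CPM in Du'an replicate 2 and Nubian replicate 1 and at 91.7 CPM in Nubian replicate 2, with a contrast that did not pass (0.28, SE 0.26, adjusted p = 0.501). Cycling GCs were at 63.6, 80.1, 226 and 63.1 CPM and were called lower (-1.04, SE 0.26, adjusted p = 0.00115). Macrophages, at 48.6 ± 31.2 CPM, and T or natural killer nuclei, at 51.9 ± 37.9 CPM, had the lowest means.

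PAPPA, the protease, had its highest means in mural and cycling GCs, with a wide spread between goats. Mural GCs carried it at 28.1 CPM in Du'an replicate 2, 103 CPM in Nubian replicate 1 and 1400.4 CPM in Nubian replicate 2. Cycling GCs were at 3.97 and 31.5 CPM in the Du'an goats and 231 and 272 CPM in the Nubian goats. Both were called higher (4.62, SE 0.38, adjusted p = 1.14e-13, and 3.02, SE 0.37, adjusted p = 2.49e-09; the latter 1.76 and adjusted p = 0.0124 under a coarser clustering). The mural log2 fold change was 3.07 without Nubian replicate 2 and 5.23 without Nubian replicate 1.

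Mural and cycling GCs together held 75.9% of the 469 PAPPA UMIs of Du'an replicate 2, 85.6% of the 4030 of Nubian replicate 1 and 82.9% of the 3889 of Nubian replicate 2. In Du'an replicate 1, which had 0 mural GCs, the cycling GCs held 4.17% of the 120 PAPPA UMIs of the library, and at 3.97 CPM they were below its lymphatic endothelium. Cumulus GCs were at 1.58, 0.605, 6.98 and 3.46 CPM, no higher than the 5.89 ± 5.55 CPM of T or natural killer nuclei, and were called lower (-2.50, SE 0.59, adjusted p = 0.00065). Without Nubian replicate 2 the call was lost, with a log2 fold change of -1.76. That fit leaves the ciliated class with 1 sum holding 0 UMIs of PAPPA. Lymphatic endothelium came next with 37.7, 23.3, 59.8 and 24.4 CPM (1.90, SE 0.50, adjusted p = 0.00247), with a log2 fold change of 2.68 without Nubian replicate 2 and no call without the goat as a block (adjusted p = 0.223). Its goats do not separate by breed, unlike those of cycling GCs.

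**Figure D2:**
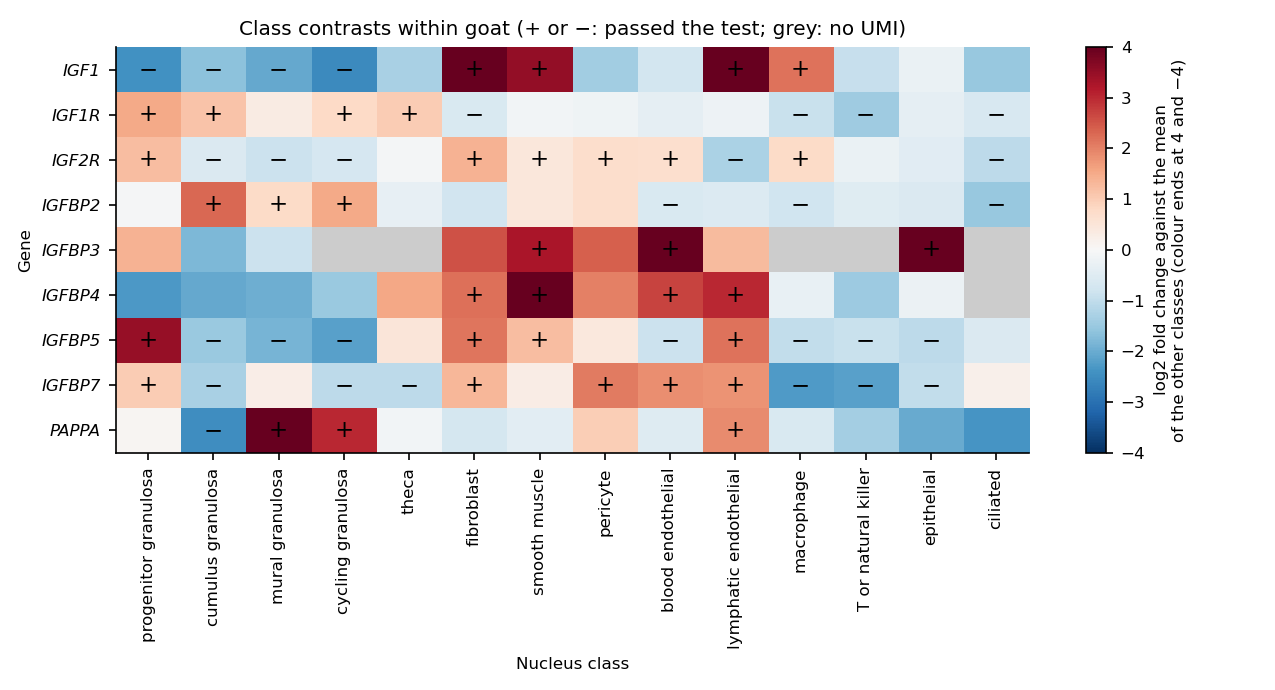
Colour shows the log2 fold change of each gene (rows) in each class (columns) against the mean of the other classes, fitted within goats, with + or − where the test passed and grey where the class held 0 UMIs. IGFBP5 has 4 classes marked + and 7 marked −, and lymphatic endothelium has 5 genes marked + beside a − for IGF2R. The colours of IGFBP3 and IGFBP4 depend on the prior count.

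The GC states were then compared with each other within goats, using the sums of progenitor, cumulus and mural GCs. Of the 9 genes, 7 passed the filter on low counts, and IGFBP3 and IGFBP4 did not. Between cumulus and progenitor GCs, 1 of the 7 was higher in cumulus and 3 were lower, where 13.1% and 16.3% of all genes tested were called in these directions. IGFBP2 was higher in cumulus GCs (2.18, SE 0.21, adjusted p = 0.000122), and IGFBP5 (-4.55, SE 0.33, adjusted p = 3.69e-05), IGFBP7 (-2.10, SE 0.22, adjusted p = 0.000217) and IGF2R (-1.67, SE 0.18, adjusted p = 0.000216) were lower. The sums of the 2 states did not overlap for any of these 4 genes. The test had already picked these genes, and the share without overlap over all genes was not counted. IGF1 (0.87, SE 0.30, adjusted p = 0.0555), IGF1R (-0.35, SE 0.12, adjusted p = 0.0609) and PAPPA (-2.19, SE 0.91, adjusted p = 0.104) missed the threshold.

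Between mural and cumulus GCs, 2 genes were higher in mural and 2 lower, against 9.18% and 11.3% of all genes. PAPPA was higher (6.09, SE 0.94, adjusted p = 0.00249), with 7.31 without Nubian replicate 1 and 4.47 without Nubian replicate 2. IGFBP7 was higher (1.46, SE 0.24, adjusted p = 0.00369, and 1.12 with adjusted p = 0.0825 under a coarser clustering), and IGFBP2 (-1.39, SE 0.22, adjusted p = 0.00294) and IGF1R (-0.76, SE 0.14, adjusted p = 0.00544) were lower. The IGF1R call was lost without Du'an replicate 2 (-0.65, adjusted p = 0.0529). IGFBP5, low in both states, did not pass (-0.46, SE 0.34, adjusted p = 0.387).

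Between mural and progenitor GCs, 2 genes were higher in mural and 3 lower, against 14.3% and 17.7% of all genes. IGFBP5 (-5.02, SE 0.39, adjusted p = 4.34e-05), IGF2R (-1.94, SE 0.21, adjusted p = 0.00019) and IGF1R (-1.10, SE 0.14, adjusted p = 0.000424) were lower in mural GCs. PAPPA was higher (3.90, SE 0.93, adjusted p = 0.0117), with 4.69 without Du'an replicate 2 and 2.3 without Nubian replicate 2. The call on IGFBP2 (0.78, SE 0.23, adjusted p = 0.0277) did not hold: its log2 difference was -0.027 with a coarser clustering, and the adjusted p was 0.0854 without Du'an replicate 2 and 0.0838 without Nubian replicate 2. The low shared GC markers of the progenitor class, given above, apply to both contrasts with it.

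**Figure D3:**
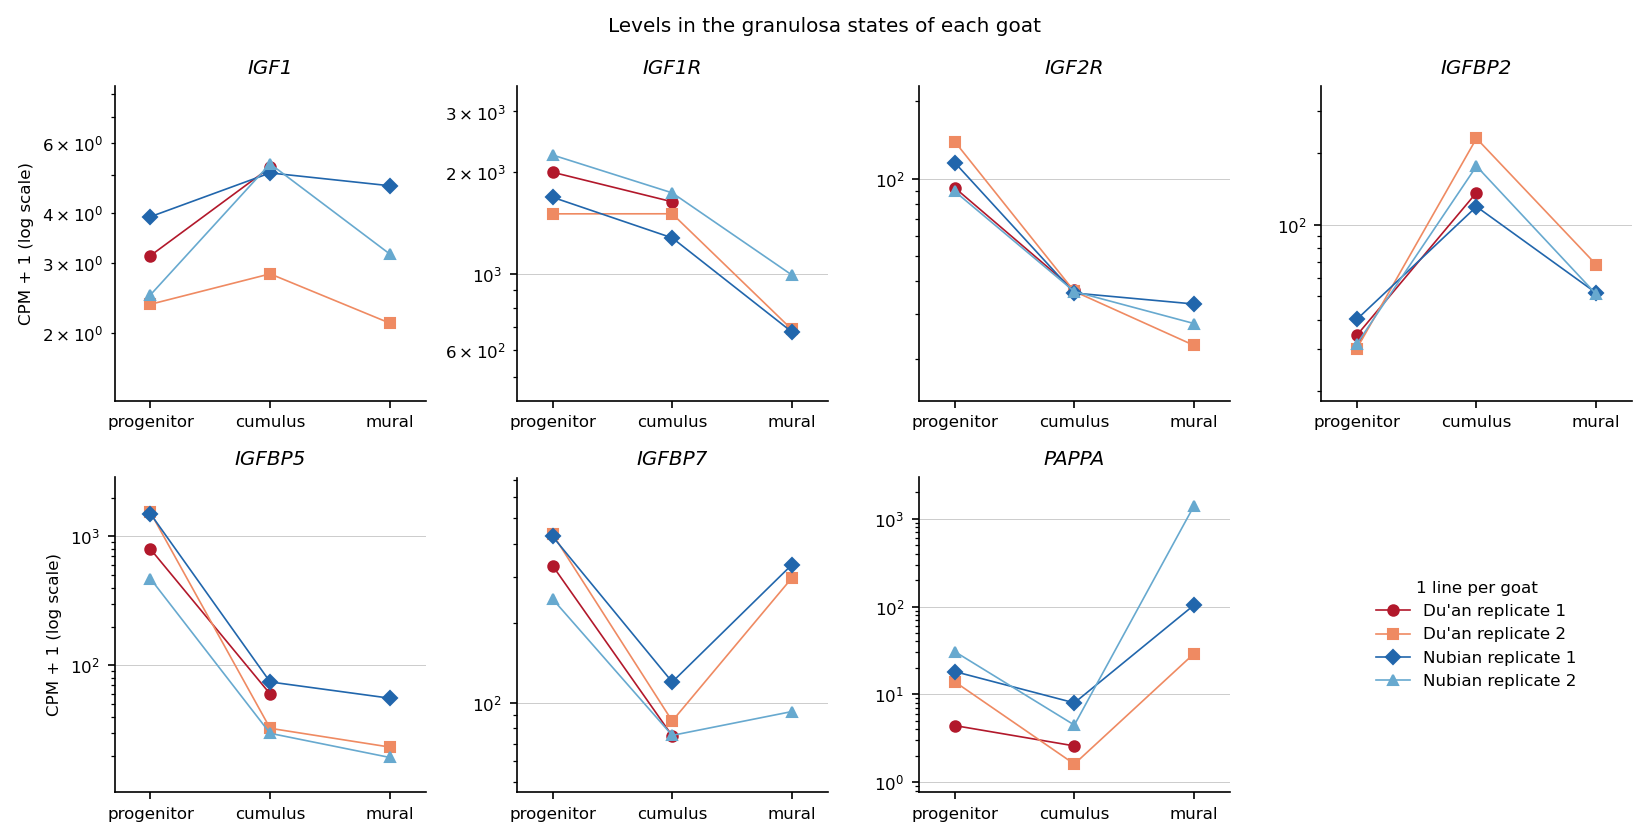
Level in CPM plus 1 (vertical log axis) of 7 genes in progenitor, cumulus and mural GCs, with 1 line per goat and no mural point for Du'an replicate 1. IGFBP5 and IGF2R drop from progenitor to cumulus in all 4 goats, IGFBP2 goes the other way, and PAPPA climbs to 28.1, 103 and 1400.4 CPM in mural GCs.

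A finer clustering of the GCs alone, again without the 9 genes, showed where the spread of PAPPA between goats lies. Mural GCs fell into 3 subclusters that follow the goats: 1 with 4217 of its 4280 nuclei from Nubian replicate 1, 1 with 1422 of 1457 from Du'an replicate 2, and 1 with all of its 322 nuclei from Nubian replicate 2. PAPPA was at 1547 CPM in the last. In the first it was at 103 CPM in Nubian replicate 1 and, in the 35 nuclei of Nubian replicate 2 that fell there, at 126 CPM, while the 28 nuclei of Du'an replicate 2 there held 1 UMI (7.44 CPM). In the second it was at 28.3 CPM in Du'an replicate 2 and at 127 CPM in 34 nuclei of Nubian replicate 1. Nubian replicate 2 thus held both mural nuclei with PAPPA near the level of Nubian replicate 1 and a larger set with more than 10 times that level. Goat and mural subcluster cannot be told apart beyond these few nuclei.

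The 322 nuclei with the most PAPPA also differed in IGFBP7, which was at 60.1 CPM there and at 374 CPM in the 35 other mural nuclei of the same goat. IGF1R was at 979 and 1110.0 CPM in these 2 sets. The inhibin subunit genes INHBA and INHBB and CYP19A1 were at their highest mural levels in Nubian replicate 2 (3343, 421 and 4303 CPM), while LHCGR was highest in Du'an replicate 2, and the part of follicle stage in the PAPPA level was not tested.

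Cycling GCs fell into 2 subclusters, and the difference between them resembled that between cumulus and mural GCs. The first, with 919 nuclei and cumulus markers second to the cell cycle genes, carried PAPPA at 3.97, 2.31, 20.3 and 4.96 CPM. The second, with 831 nuclei and mural markers second, carried it at 213, 258 and 2098 CPM in Du'an replicate 2 and the Nubian goats, and had 0 nuclei from Du'an replicate 1. In each of these 3 goats PAPPA was higher in the second subcluster. IGF1R went the other way, with 1403, 1437 and 1559.9 CPM in the first and 644, 678 and 996 CPM in the second, and so did IGFBP2, with 127, 105 and 144 CPM against 77.6, 64.1 and 20.3 CPM. Because 747 of the 858 cycling GCs of Nubian replicate 1 belong to the second subcluster, the low IGF1R (762 CPM) and the high IGFBP7 (226 CPM) of its cycling class go with that mixture.

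The 2 progenitor subclusters both carried IGFBP5 at high levels, with 785, 1308, 1361 and 435 CPM in the larger and 1280.4, 1768 and 2129.8 CPM in the smaller, which had under 20 nuclei from Nubian replicate 2. Of the 3 cumulus subclusters, 1717 of the 2106 cumulus GCs of Nubian replicate 1 fell into 1 that held 34 to 44 nuclei of each other goat. IGFBP2 was at 117 CPM there in Nubian replicate 1, and between 132 and 182 CPM in the main cumulus subcluster of the other 3 goats. The highest IGFBP2 value was 481 CPM, in 556 nuclei of Du'an replicate 2 from the third cumulus subcluster, where the other goats had 155, 146 and 194 CPM.

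**Figure D4:**
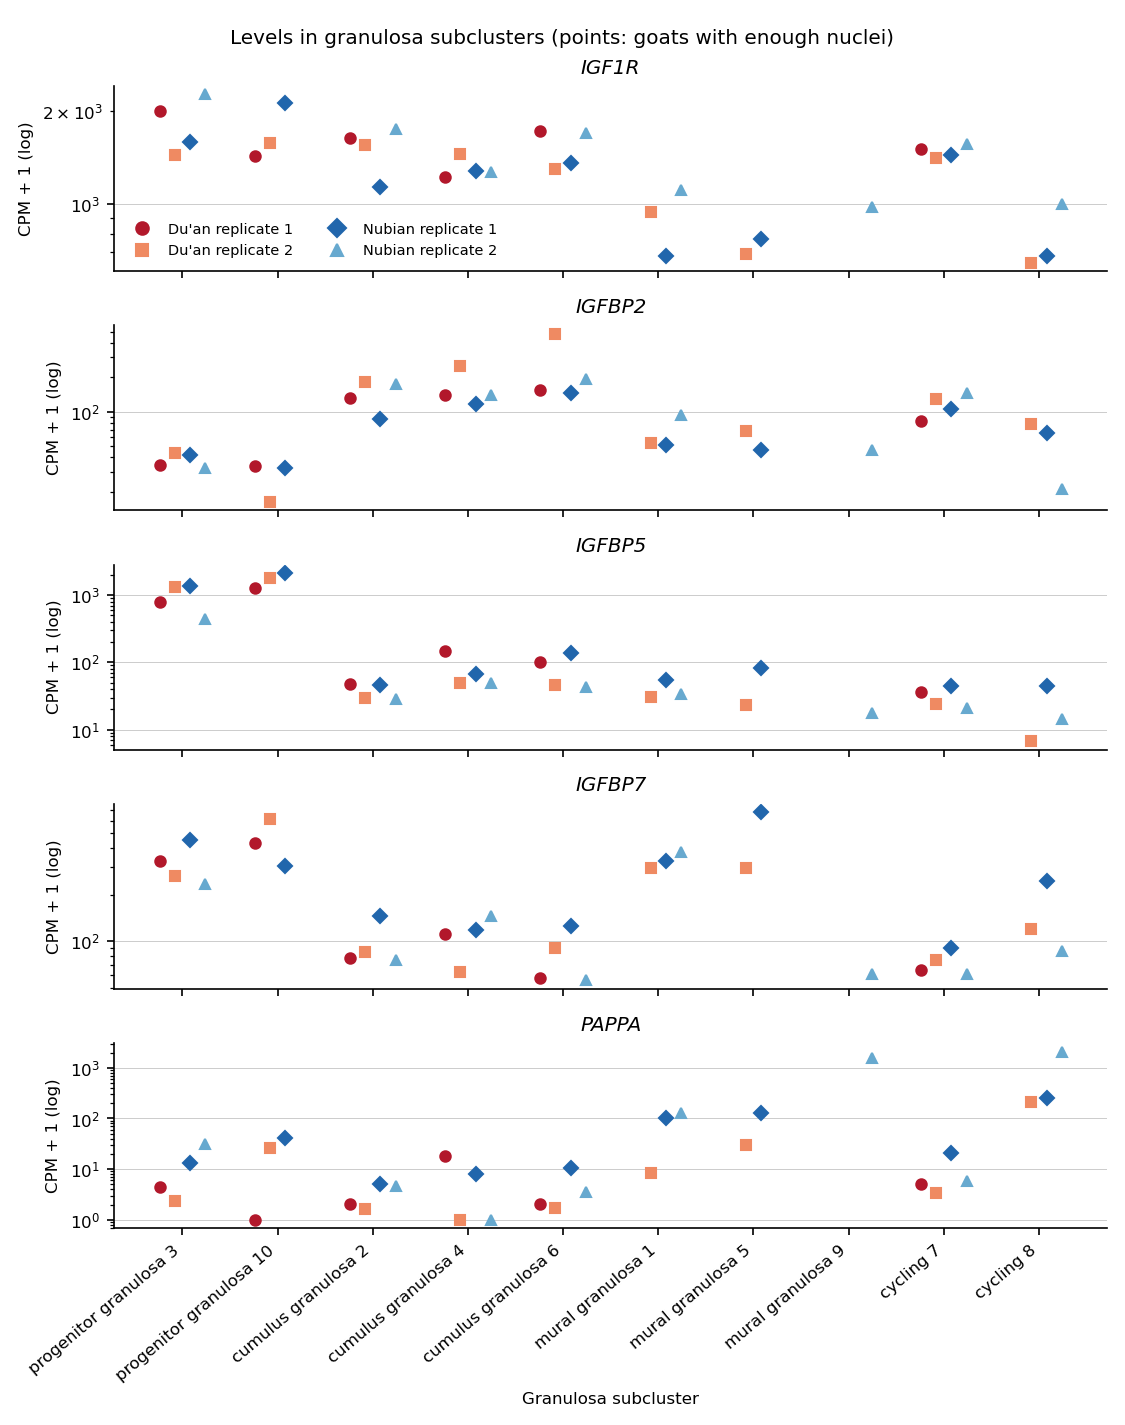
Level in CPM plus 1 (vertical log axis) of IGF1R, IGFBP2, IGFBP5, IGFBP7 and PAPPA in each GC subcluster, with 1 point per goat that had at least 20 nuclei there. PAPPA spans 7.44 to 1547 CPM in the mural subclusters, 213 to 2098 CPM in the mural-like cycling subcluster 8 and 2.31 to 20.3 CPM in cycling subcluster 7.

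The authors' own tables of GC subtypes and follicle stages give, for the genes they list, the share of nuclei of a subtype or stage with a UMI, pooled over goats. These shares are the authors' values, with no replicate and no correction for depth. Among subtypes, IGFBP5 was listed at 37.5% of common progenitor GCs, IGFBP2 at 43.5% of cumulus GCs and IGFBP7 at 48.2% of mural GCs. In the progenitor, cumulus and mural classes used here, the shares of the same genes were 60.6%, 42.8% and 48.6%. The progenitor class and the authors' progenitor group thus differ in IGFBP5 and need not be the same nuclei. IGF1R was listed for common progenitor (92.2%) and cumulus GCs (91.9%), and PAPPA for no subtype. As a level for cells outside the follicle, 12.2%, 6.35% and 10.6% of the T or natural killer nuclei had a UMI of IGFBP5, IGFBP2 and IGFBP7, at a median of 2291 UMIs per nucleus against 4356 to 4631 in the 3 GC states.

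By follicle stage, IGFBP5 was listed at the primordial stage (37.5%), and IGFBP2 at the primary (48%) and secondary stages (35.3%). At the antral stage the tables listed IGFBP7 (48.4%) and PAPPA (26%), where 1.2% of T or natural killer nuclei had a PAPPA UMI. IGF1R was listed at the primordial, primary and secondary stages, at 91.7% to 93%, and not at the antral stage. IGF1, IGF2R, IGFBP3 and IGFBP4 were in neither table for any group.

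The study sets the prolific Nubian goats against the Du'an goats, so the 9 genes were compared between breeds within the 12 classes that had sums from all 4 goats, a set without mural GCs. Of 76 pairs of gene and class that passed the filter, 0 were called, as were 0 of all genes tested (0%) in either direction. At an unadjusted p under 0.05, 6 pairs were higher in Nubian goats and 1 lower, and the smallest adjusted p was 0.217. Over all genes, 4328 of 100545 pairs were under that threshold, both directions together. DESeq2's Wald test called 2 pairs higher, both for PAPPA, where it called 0.353% of all pairs higher and 0.0471% lower. These counts do not show that the breeds are alike.

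PAPPA made up 5 of the 6 pairs that were higher at an unadjusted p under 0.05, and its log2 difference was above 0 in each of the 8 classes tested. In smooth muscle it was at 1.37 and 5.40 CPM in the Du'an goats and 21.9 and 32.2 CPM in the Nubian goats (3.36, SE 0.56, unadjusted p = 0.000935 in edgeR's fit; DESeq2 adjusted p = 0.0177). In cycling GCs, whose values are given above, the log2 difference was 3.76 (SE 0.79, unadjusted p = 0.00417; DESeq2 adjusted p = 0.000352). The goats' cycling GCs are unlike mixtures of the 2 cycling subclusters, and the one with more PAPPA held 0 and 34 nuclei of the Du'an goats and 747 and 50 of the Nubian goats. Within it PAPPA was at 213 CPM in Du'an replicate 2 and at 258 CPM in Nubian replicate 1, and the breeds were not tested within subclusters. Macrophages had 0 and 3.23 CPM against 21.3 and 18.7 CPM, and T or natural killer nuclei 0 and 2.31 CPM against 10.3 and 10.9 CPM. In these 4 classes, and in cumulus and progenitor GCs, both Nubian goats were above both Du'an goats, while in blood and lymphatic endothelium the goats overlapped. Over all genes and classes tested, both Nubian goats were above both Du'an goats in 16.4% of pairs and below them in 15.2%, and for the 9 genes in 13 and 11 of 76 pairs.

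The amount of PAPPA RNA in the whole library differed between breeds in the same direction as in these classes. Whole libraries held PAPPA at 4.03 and 9.95 CPM in the Du'an goats and 73.9 and 106 CPM in the Nubian goats. The 7 mural markers, summed in T or natural killer nuclei, were at 252 and 1649.6 CPM in the Du'an goats and 2323 and 455 CPM in the Nubian goats, in smooth muscle at 304, 2013, 3749 and 712 CPM, and in macrophages at 82.4, 648, 3231 and 506 CPM. Du'an replicate 2 was above Nubian replicate 2 in the summed mural markers of these classes and below it in their PAPPA. It was also below Nubian replicate 2 in the PAPPA of mural GCs themselves (28.1 and 1400.4 CPM). Mural GCs were 0% and 14.5% of the kept nuclei of the Du'an goats and 26.8% and 3.48% of those of the Nubian goats. The part of free RNA from mural GCs in these values was not tested.

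For IGF1, fibroblasts were lower in the Nubian goats (54.4 and 80.2 CPM) than in the Du'an goats (142 and 339 CPM), with no overlap and no call (-1.98, SE 0.54, unadjusted p = 0.0068, adjusted p = 0.524), and the 2 fibroblast clusters described above were unevenly shared out among the goats. IGF1 in lymphatic endothelium and in smooth muscle overlapped between breeds. Whether a class contrast differed between breeds was tested in 108 pairs with 0 called, where 0.0909% and 0.00815% of all pairs tested were called in the 2 directions. Part of these fits could not give a call, because their SE was far above the log2 difference. The SE was 3229 for PAPPA in cycling GCs, 134 for PAPPA in smooth muscle, 1813200 for IGFBP4 in cycling GCs and at least 763 for IGFBP3 in every class. For these pairs the lack of a call says nothing about the breeds. At an unadjusted p under 0.05 there were 5 of the 108, and the share over all genes at that threshold was not counted. The smallest adjusted p was 0.233, for IGF1 in fibroblasts.

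**Figure D5:**
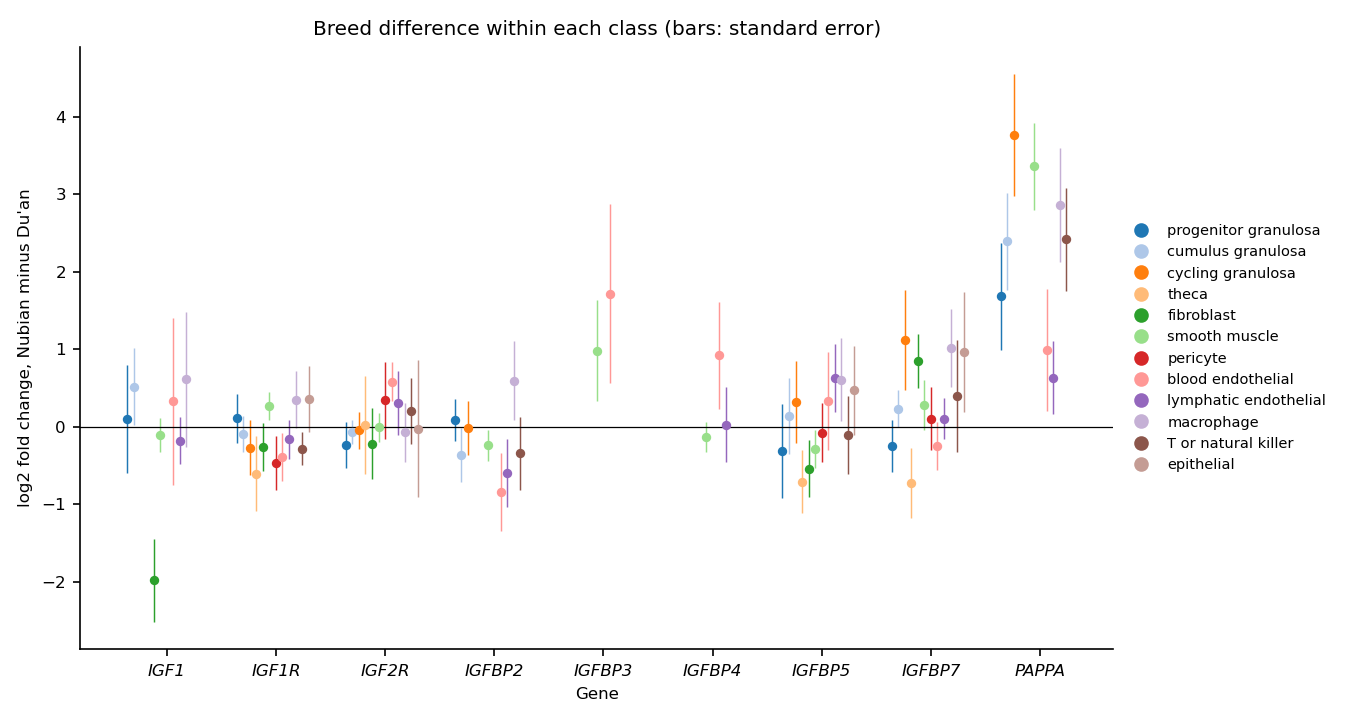
Log2 difference between breeds (Nubian minus Du'an, points, with the standard error as bars) for each gene in each class with sums from all 4 goats, coloured by class. The points of PAPPA lie above 0 in all 8 classes shown, from 0.63 in lymphatic endothelium to 3.76 in cycling GCs, and those of the other genes lie on both sides of 0.

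The wider IGF pathway was described from 5 lists of 42 genes. The counts of each list stand against 17.9% of pairs called higher and 11.1% called lower over all genes tested. Among 9 other extracellular genes, 5 were tested, and of their 70 pairs of gene and class 17 were called higher and 9 lower (median log2 fold change 0.09, against -0.04 over all genes). IGF2, the second ligand, was at 149 ± 82.3 CPM in blood endothelium (4.33, SE 0.20, adjusted p = 1.17e-23), a class where IGF1 was at 6.32 CPM. STC1, an inhibitor of PAPPA, was at 232 ± 142 CPM in theca nuclei (5.71, SE 0.41, adjusted p = 1.69e-15), where it is among the genes that lead the cluster. HTRA1, a secreted protease that cleaves IGFBP5, was lower in mural GCs (-3.33, SE 0.40, adjusted p = 3.77e-09). IGFBP6 was called higher in fibroblasts (adjusted p = 1.34e-08). INS, the insulin gene, had 0 UMIs.

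Of the receptors and adaptors, 9 of 10 were tested, with 35 of 126 pairs called higher and 31 lower (median -0.05). GRB10 and GRB14, adaptors that bind the activated insulin and IGF receptors, were called in opposite directions in mural GCs: GRB14 was higher, at 4490 ± 1898 CPM (2.73, SE 0.22, adjusted p = 3.07e-14), and GRB10 lower (-3.50, SE 0.32, adjusted p = 3.01e-12). INSRR, a receptor related to the insulin receptor, was called higher in theca (adjusted p = 4.75e-12), and GAB1, a docking protein, lower in T or natural killer nuclei (-2.24, SE 0.20, adjusted p = 1.54e-13). Of the PI3K, AKT and mTOR genes all 16 were tested, with 36 of 224 pairs higher and 29 lower (median 0.00). These counts are near the shares over all genes (17.9% and 11.1%). PIK3R1, a regulatory subunit of PI3K, was higher in mural GCs, at 1680.4 ± 389.7 CPM (2.27, SE 0.20, adjusted p = 1.32e-12), and PIK3R3 in epithelial nuclei (2.25, SE 0.33, adjusted p = 2.56e-07). PHLPP1, a phosphatase of AKT, and PIK3R2 were lower in T or natural killer nuclei (-1.89 and -1.68, adjusted p = 1.19e-08 and 0.000309).

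FOXO factors, which AKT removes from the nucleus, had 3 of 4 genes tested, with 5 of 42 pairs higher and 8 lower (median -0.02). FOXO1 was higher in mural GCs, at 3478 ± 496 CPM (2.34, SE 0.17, adjusted p = 5.08e-15), and FOXO4 and FOXO3 were lower in cycling GCs (-1.46 and -0.68, adjusted p = 0.000324 and 0.000349). Of the 3 genes for IGF2 mRNA-binding proteins, IGF2BP2 alone was tested and had 4 of 14 classes higher and 4 lower (median -0.50), led by epithelial nuclei at 254 ± 81.3 CPM (5.76, SE 0.32, adjusted p = 2.25e-20).

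Likeness of pattern was described by Pearson's r over the 53 sums on log2(CPM + 1), with each goat's mean removed, against 9381 genes with a mean of at least 10 CPM. The sums share libraries, and no p is given. IGF1 was most like ABCA6 (0.815), ABCA10 (0.788) and GAS7 (0.782), and IGF1R most like DLG5 (0.869), RGS7 (0.866) and PRTG (0.847). IGF2R was most like BACH1 (0.80), STK38 (0.768) and USP12 (0.751). Of the binding proteins, IGFBP2 was most like PPAT (0.872), LOC102169935 (0.823) and TCEA3 (0.822), and IGFBP3, at few UMIs, most like SOX13 (0.694), BMX (0.687) and MGP (0.681). IGFBP4 was most like RFTN2 (0.867), LOC106503341 (0.864) and ADAMTS18 (0.833), IGFBP5 most like RBMS3 (0.838), AFAP1 (0.835) and ARHGEF40 (0.834), and IGFBP7 most like LOC102183372 (0.865), COL18A1 (0.845) and CRIM1 (0.842). PAPPA had no close match, and the genes given here for it are PDE8A (0.628) and SEMA6D (0.609). Between the 9 genes themselves r ran from -0.342 for IGF1 with IGFBP2 to 0.577 for IGFBP5 with IGFBP7, and for the ligand IGF1 with its receptor IGF1R it was -0.309.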

How the data were processed

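Each library was one goat ovary. For each, the authors deposited a matrix of raw UMI counts from Cell Ranger (5.0.0 in the study's methods and the submitters' processing notes) and not normalized; the genome build is not given by name in the sources used here, and no coordinates or sequences are printed. The authors also deposited tables of GC subtypes and follicle stages, whose column of the share of a group's nuclei with a UMI (a fraction, pooled over goats) was read as percent. Their share outside the group, fold changes and p-values were left unused. The gene symbols were read after removal of the prefix of the feature names.

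Nuclei were kept within 2 SD of the mean UMI and gene count and at most 20% mitochondrial UMIs, after the study's methods, which left 44872 of 48332. Scrublet marked 153 nuclei, too few for a working caller, and its calls were not used, so doublets remain. Counts were scaled to 10000 UMIs and logged, and 2000 variable genes, chosen without the 9 genes, the pathway lists, the markers and mitochondrial genes, gave 30 principal components and Leiden clusters (scanpy 1.11.5, leidenalg 0.10.2) at resolution 0.8, and 0.5 within GCs. Members did not shape the clusters, but the clusters and the tests use the same nuclei. Each cluster was named after the marker list of greatest mean log2 fold, if 3 or more markers were up and that mean reached 0.5 (limits chosen after seeing the data). Clusters 5, 6 and 8 were left unnamed.

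UMI counts were summed per goat and class, for sums of at least 20 nuclei, and tested by edgeR 4.0.16 (quasi-likelihood, TMM, filterByExpr, R 4.3.3) with Benjamini-Hochberg adjustment over all genes tested. The class fit took 53 sums and 14899 genes and the fit of GC states 11 sums and 12980 genes, both with the goat as a block, since each goat gave most classes. Breeds were fitted class by class, 2 goats against 2, on 3299 to 12582 genes, and the test of breed by class took 48 sums and 13289 genes. Nothing in the labels names a batch, and a library and a goat cannot be told apart. Means are over goats with their SD. Neighbouring classes in the order of levels were said to differ beyond their spread where the mean within-goat difference in log2(CPM + 1) exceeded its SD. The fits were tested on simulated data.

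All 9 genes are named, with the 3 genes most like each and up to 4 called genes of each pathway list. One gene that this rule names is not reported here. The genes, lists and comparisons were chosen with earlier results of these data known. The alternatives were other scaling (RLE), DESeq2 1.42.0, every gene with at least 1 UMI, Leiden resolutions 0.4 and 1.2, removal of the 10% of nuclei with the highest doublet scores, sums of at least 50 nuclei, other blocks, each goat left out, and nuclei of shared barcodes left out. The last, and a crossed block, were chosen after seeing the data.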

Additional observations from a re-analysis of the deposited data

Results flagged for a closer look

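Of the 81 pairs of gene and class with a mean of at least 10 CPM and 4 goats, 11 had 1 goat far from the other 3, by a gap that takes up most of the range. For independent, normally distributed values chance would give about 1 in 20 such pairs. The pairs here share sums of unlike depth, so that rate need not hold, and the 4 goats of a pair include both breeds.

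Du'an replicate 1 stood above the other goats in 4 pairs: IGFBP5 in fibroblasts (845 CPM, against 446 to 483 CPM), IGFBP5 in smooth muscle (391 CPM, against 249 to 269 CPM), IGFBP4 in fibroblasts (26.7 CPM, against 9.04 to 10.4 CPM) and IGFBP2 in epithelial nuclei (109.6 CPM, against 16.6 to 30.2 CPM). The fibroblast and epithelial sums of this goat come from 38 and 25 nuclei. Its IGFBP4 value in fibroblasts rests on 3 UMIs and its IGFBP2 value in epithelial nuclei on 8 UMIs.

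Nubian replicate 1 stood above the others in 4 pairs: IGFBP7 in cycling GCs (226 CPM, against 63.1 to 80.1 CPM), in epithelial nuclei (319 CPM, against 67.2 to 94.9 CPM) and in macrophages (95 CPM, against 28.3 to 38.2 CPM), and PAPPA in pericytes (63.7 CPM, against 10.5 to 17.5 CPM). Its library had the largest share of mural GCs, 26.8% of kept nuclei, and its whole-library IGFBP7 level was 318 CPM, against 148 to 204 CPM in the other goats. The part of mural RNA in these levels was not tested.

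Nubian replicate 2 stood above the others for IGFBP3 in blood endothelium (88.1 CPM, against 5.38 to 16.5 CPM) and for IGF1R in smooth muscle (906 CPM, against 676 to 714 CPM). Du'an replicate 2 stood above the others for IGFBP2 in lymphatic endothelium (41.4 CPM, against 20.4 to 21.9 CPM).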

How the results depend on the processing

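For the pairs of gene and class that were called, 791 values under the alternatives kept the direction and the call, 59 lost the call and 0 reversed. For the called GC state contrasts 163 kept both, 5 lost the call, and 1 reversed: IGFBP2 in mural against progenitor GCs, -0.027 at Leiden resolution 0.4. The 30 pairs called lower between classes became 18 without Nubian replicate 2 (18 to 32 over the goats left out), and the 36 called higher stayed between 31 and 38. The fit without Nubian replicate 2 leaves the ciliated class with 1 sum, which holds 0 UMIs of IGF1 and of PAPPA. Without the goat as a block the class counts were 34 higher and 26 lower. RLE scaling moved the median of all genes by -0.18 to 0.15 on the log2 scale, by class.

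In mural against cumulus GCs, the 2 genes called higher became 1 at Leiden resolution 0.4, and the 2 called lower ranged from 1 to 2 over the goats left out. In mural against progenitor GCs, the 2 called higher became 1 at resolutions 0.4 and 1.2 and ranged from 1 to 2 over the goats left out. In cumulus against progenitor GCs, the 3 called lower became 5 under DESeq2 and 5 with every gene of at least 1 UMI. Over all genes, with both directions and all contrasts of GC states together, 10625 of 38940 pairs were called in the main fit. There were 11695 of 38940 under DESeq2, 10732 of 61833 with every gene, 7496 of 39573 at resolution 0.4 and 7687 of 37266 at resolution 1.2.

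Between breeds, 0 pairs called higher became 2 under DESeq2 (PAPPA in cycling GCs and smooth muscle; 0.353% of all pairs), 3 with every gene of at least 1 UMI (PAPPA in macrophages, progenitor GCs and smooth muscle; 0.569%), 1 at resolution 1.2 (PAPPA in mural GCs; 0.0447%) and 1 under a crossed replicate block (PAPPA in cycling GCs; 0.236%). At resolution 1.2 the mural class had sums from all 4 goats, unlike in the main clustering, so its call is on a differently composed class. The pairs called higher ranged from 0 to 1 over the goats left out. They were IGFBP3 in blood endothelium without Nubian replicate 1 (0.629% of all pairs) and IGFBP7 in cycling GCs without Nubian replicate 2 (0.234%). The 0 called lower became 1 with every gene (0.21% of all pairs) and ranged from 0 to 1 over the goats left out (0.171% without Nubian replicate 2), each time IGF1 in fibroblasts. A fit that leaves a breed with 1 goat assumes that it varies like the other 2. With the replicate block the counts were 0 and 0. Goats of the same number did not deviate together (correlation -0.285 to 0.0848 over 12 classes, under -0.1 in 4), and they share only a number. Breed by class was not run under alternatives. The cause of these changes was not tested.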

Other observations

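The unnamed clusters 5, 6 and 8 carried no name and entered no comparison, and their values are pooled over goats. A cluster of 3254 nuclei, 1492 of them from Du'an replicate 1 and 1704 from Nubian replicate 2, carried IGF1R at 2003 CPM and IGFBP2 at 156 CPM, with IGFBP5 at 39.8 CPM and IGFBP7 at 54.4 CPM. PAPPA was at 12.0 CPM and IGF1 at 1.89 CPM there. For IGFBP2, IGFBP5 and IGFBP7 these levels lie nearer to those of cumulus GCs (165, 48.2 and 87.9 CPM) than of progenitor GCs (33.0, 1073 and 359 CPM). For IGF1R, PAPPA and IGF1 they lie nearer to progenitor GCs (1853, 15.8 and 1.97 CPM) than to cumulus GCs (1536, 3.16 and 3.60 CPM).

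A shallow cluster of 2336 nuclei, with IGF2 among its leading genes, carried IGFBP5 at 1249.5 CPM, above the mean of every named class, together with IGFBP7 at 491 CPM and IGFBP2 at 288 CPM. A second shallow cluster, of 2434 nuclei, carried IGF1R at 925 CPM, IGFBP5 at 245 CPM and PAPPA at 55.3 CPM. The median UMI counts of these 2 clusters were 777 and 830 per nucleus.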
